A study of Mus musculus with 8 samples.

Results

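Germ cells use a set of genes that most other tissues keep silent, and in many of these genes the silencing in the body's other cells rests on methylation of cytosines at the promoter. The set studied here comprised 791 promoter cytosines of 49 germline and meiosis genes, out of 203645 promoter cytosines of 9224 genes measured in cultured mouse spermatogonia. Members were chosen by their symbols alone, as autosomal genes whose names begin with the letters of known germ cell families (Tex with a digit, Tdrd, Tdrkh, Sycp, Syce, Spata, Spag, Piwil, Dazl, Ddx4, Mael, Sohlh, Nanos, Hormad, Stag3, Msh, Tsga, Odf, Dnah and others). The letters Ddx4 also took in Ddx41, Ddx42, Ddx46 and Ddx49, RNA helicases that are not germ cell genes and were described apart. Without them 743 cytosines in 45 genes were left. A match of letters does not make all 45 of them germ cell genes. Tdrd3, with 121 cytosines, and Msh6 are also active outside the germline, and how many others are was not examined. None of the members lay on a sex chromosome. This choice of members was made with earlier results of these data known.

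The cells were germline stem (GS) cells, cultured spermatogonia with stem cell activity, derived from CD9-selected spermatogonia of mature testes. All were labelled wild type and B6. In all, 4 lines came from control-F1 mice born after natural mating (lines 29, 37, 44 and 45), and 4 lines came from ICSI-F1 mice, conceived by injection of sperm into oocytes (intracytoplasmic sperm injection, lines 11, 17, 20 and 21). All lines were sequenced by reduced representation bisulfite sequencing (RRBS), 1 library per line. The labels of lines 29, 37, 11 and 17 (called library set 1 here) are written differently, in their source and description fields, from those of lines 44, 45, 20 and 21 (library set 2), and each set holds 2 control-F1 and 2 ICSI-F1 lines. The files hold methylation and no expression, so the identity of the cells was not checked against expressed markers.

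In RRBS the DNA is cut with MspI at CCGG and the fragment ends are sequenced after bisulfite conversion, which spares methylated cytosines. The methylation level is the percentage of reads that kept a cytosine at a site. Meiosis genes build the axis and the synaptonemal complex that hold paired chromosomes together, and the piRNA pathway uses small RNAs and Piwi proteins to keep transposons silent in the germline. Spermatogonia prepare for both tasks before meiosis starts, and the promoters of such genes are known for being methylated in the soma and unmethylated in germ cells.

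The scaled coverage of the member cytosines had a median of 73 to 93 reads per line and reached from 10 to 261 reads. At a single cytosine with the median coverage, a level of 0 still allows up to about 3.23 to 4.11%, counting error only. This rough bound is 3 divided by the scaled coverage, and it is wider at cytosines with fewer reads. Among 43 core germline genes listed by name, 15 had cytosines in the table: Dazl, Ddx4, Hormad1, Hormad2, Mael, Nanos1, Piwil2, Sohlh1, Sohlh2, Stag3, Syce2, Sycp1, Sycp2, Tdrd6 and Tdrkh. The others were not analysed here. The cytosines all lay within 1 kb upstream of a gene start, and 617 of the 791 were within 200 bases of it. CpG islands held 467 of the member cytosines (59.0%), against 76.7% of all promoter cytosines. In the windows of 42 members no other gene started, and the remaining 7 (Ddx42, Ddx49, Dnah1, Spata1, Spata33, Stag3 and Tdrkh) shared the window with the start of another gene.

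The stretches in which the results below were measured are shown here from the mm10 reference (RefSeq GRCm38.p6), all on the + strand. For Sycp2 and Spag4, the most methylated members away from CCGG, and for 4 core germ cell genes with low levels, capitals mark the CpGs in which a cytosine was measured. Spag4 and Hormad1 are transcribed from left to right, and the other genes shown from right to left.
Sycp2, chr2:178408313-178408379: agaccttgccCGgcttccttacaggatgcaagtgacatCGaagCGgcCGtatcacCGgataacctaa
Spag4, chr2:156064244-156064273: ataaaatgtgCGgaagccCGgggacccatg
Ddx4, chr13:112652482-112652571: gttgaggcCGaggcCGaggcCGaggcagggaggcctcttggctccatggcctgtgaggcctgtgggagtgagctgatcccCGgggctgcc
Dazl, chr17:50294104-50294159: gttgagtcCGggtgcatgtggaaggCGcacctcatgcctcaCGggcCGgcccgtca
Mael, chr1:166238748-166238908: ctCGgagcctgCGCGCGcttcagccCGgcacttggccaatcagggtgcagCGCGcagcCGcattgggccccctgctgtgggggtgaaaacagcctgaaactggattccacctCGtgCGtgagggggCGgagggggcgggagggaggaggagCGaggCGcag
Piwil2, chr14:70429391-70429567: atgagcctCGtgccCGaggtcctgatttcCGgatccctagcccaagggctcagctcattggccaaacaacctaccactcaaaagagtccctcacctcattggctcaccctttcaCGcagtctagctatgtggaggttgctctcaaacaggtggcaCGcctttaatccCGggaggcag
In the Hormad1 and Tex30 stretches, shown because low and high levels alternate along them, capitals mark CCGG, the MspI site.
Hormad1, chr3:95559496-95559676: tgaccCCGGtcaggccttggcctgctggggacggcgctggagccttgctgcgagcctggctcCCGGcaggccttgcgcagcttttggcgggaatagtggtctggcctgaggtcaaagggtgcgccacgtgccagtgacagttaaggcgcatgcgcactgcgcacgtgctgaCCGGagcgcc
Tex30, chr1:44102458-44102649: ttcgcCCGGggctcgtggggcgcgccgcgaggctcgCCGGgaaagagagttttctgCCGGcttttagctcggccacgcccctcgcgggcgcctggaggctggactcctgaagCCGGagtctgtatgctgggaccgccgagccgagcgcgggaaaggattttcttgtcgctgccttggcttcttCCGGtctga

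High methylation at the member promoters was mostly found at CCGG. Of 69 member cytosines with a mean level of 20% or more over the 8 lines, 60 (87%) lay in CCGG, although only 142 of the 791 member cytosines did (18%). Over the whole table CCGG held 83.6% of the cytosines at that level and 17.1% of all cytosines. The mean level over the 142 CCGG cytosines was 18.4 to 25.7% per line, and over the other 649 it was 1.42 to 4.63%. In Hormad1, which encodes a protein of the meiotic chromosome axis, the 37 cytosines outside CCGG averaged 4.25% over the lines, and 8 of the 11 in CCGG were between 21.4 and 34.9%. In Tex30, the 34 cytosines outside CCGG averaged 2.14%, while the CCGG cytosine 201 bases upstream was at 93.3% and its partner on the other strand, in the same CpG, at 2.74%. The Tex30 cytosine 24 bases upstream was at 54.0% and its partner at 5.63%. Among CpGs measured on both strands, the strands differed by more than 20 percentage points at 24 of 42 member CpGs in CCGG and at 1 of 293 others.

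**Figure D1:**
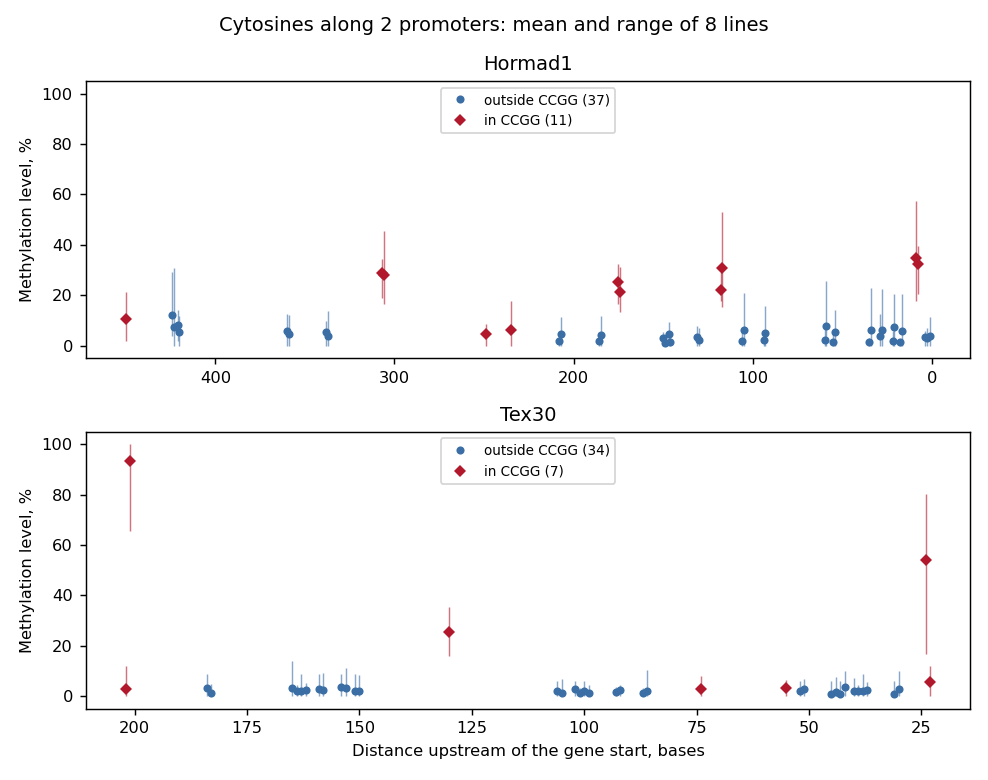
Methylation level (%) of each cytosine of Hormad1 and Tex30 against its distance upstream of the gene start (bases), as the mean (point) and the range (line) of the 8 lines. The 37 and 34 cytosines outside CCGG form a low band along each promoter, and 8 of 11 CCGG cytosines of Hormad1 and 3 of 7 of Tex30 lie at 20% or more.

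The level of a CCGG cytosine went with the length of the fragments on either side of it. A cut CCGG leaves its cytosine at the 3′ end of the fragment to its left or right and at the 5′ end of the neighbouring fragment, and the recessed 3′ ends are refilled with new nucleotides during library preparation, so that a cytosine read there can have been added in the tube. Reads were 150 bases long, so that a read begun at the near end of a fragment reaches the far end only of short ones. The reads were paired, and the mate begins at the far end whatever the length. How trimming treated the first bases of the mate was not examined. At the 25 member cytosines where only the fragment with the cytosine at its 3′ end was 20 to 150 bases long, the median level was 55.3%, and 24 of them were at 20% or more. Where both fragments had such a length (47 cytosines), the median was 22.5%. Where the 3′ end fragment was shorter or longer (70 cytosines), the median was 4.58%, and 7 of the 70 were at 20% or more. These 7 belonged to Dnah7c (2 cytosines, 24.6 and 52.8%), Spag4 (80.5%), Spata25 (98.7%), Sycp2 (2 cytosines, 25.9 and 37.9%) and Tsga10ip (98.1%). Spag4, Sycp2 and the distal part of Dnah7c were also methylated outside CCGG, as described below. The same classes over all promoter cytosines had medians of 65.7, 24.3 and 4.81%. Among the 25 cytosines, line 37 had the lowest mean, 37.7%, and the other lines had 56.3 to 72.8%. The deposited values do not separate refilled from genomic cytosines, the classes were drawn after the levels had been seen, and the part of refilling in these levels was not tested. Levels are therefore given below both with and without CCGG.

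**Figure D2:**
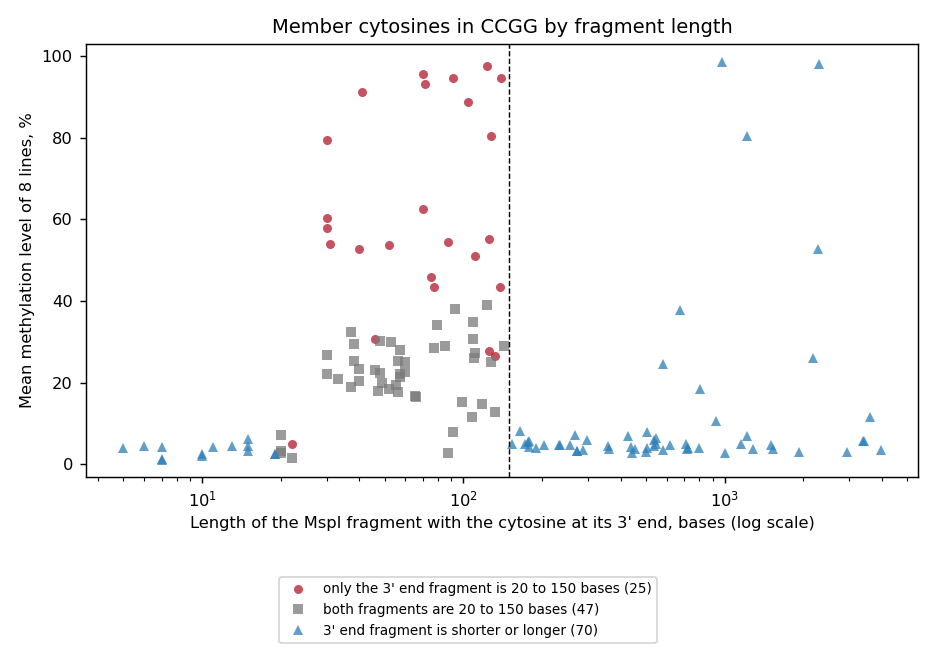
Mean level over the 8 lines (%) of the 142 member cytosines in CCGG against the length of the MspI fragment that has the cytosine at its 3′ end (bases, log scale), with the dashed line at a read length of 150 bases. Cytosines of which only that fragment was 20 to 150 bases long sit highest (median 55.3%), those with both fragments in this range lie around 22.5%, and most others lie near 4.58%, except 7 at 20% or more.

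Outside CCGG, the member promoters were nearly all unmethylated in both groups of GS cells, as were most promoters of the table. Of 37 member promoters with at least 3 such cytosines, 36 were under 10% in the control-F1 lines (97.3%), and 1, Sycp2, was above 20%. Over all 7358 promoters of that kind, 93.2% were under 10% and 4.19% were at 50% or more, where no member was. The members' median was 2.29% in the controls and 2.16% in the ICSI-F1 group, beside 2.40 and 1.98% over all promoters. With every cytosine counted, 35 of 44 member promoters were under 10% in control-F1 lines, 8 lay between 10 and 50%, and 1, Spag4, was at 50% or more. The shares over all 8174 promoters were 76.8, 16.5 and 6.67%. Besides Sycp2, the promoters between 10 and 50% were those of Ddx42, Dnah7c, Odf2, Odf3b, Spag7, Spata33 and Spata7, and those of them with cytosines outside CCGG were under 10% there. In Odf3b, which encodes an outer dense fiber family protein of sperm, all 3 measured cytosines lay in CCGG and had 4.42, 91.3 and 5.81%. Spata25 and Tsga10ip each had 1 measured cytosine, in CCGG, at 98.7 and 98.1% over the 8 lines. The 3′ end fragments at these 2 cytosines were 979 and 2300 bases long. No cytosine outside CCGG was measured in Odf3b, Spata25, Tsga10ip, Sohlh1 and Tdrkh.

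**Figure D3:**
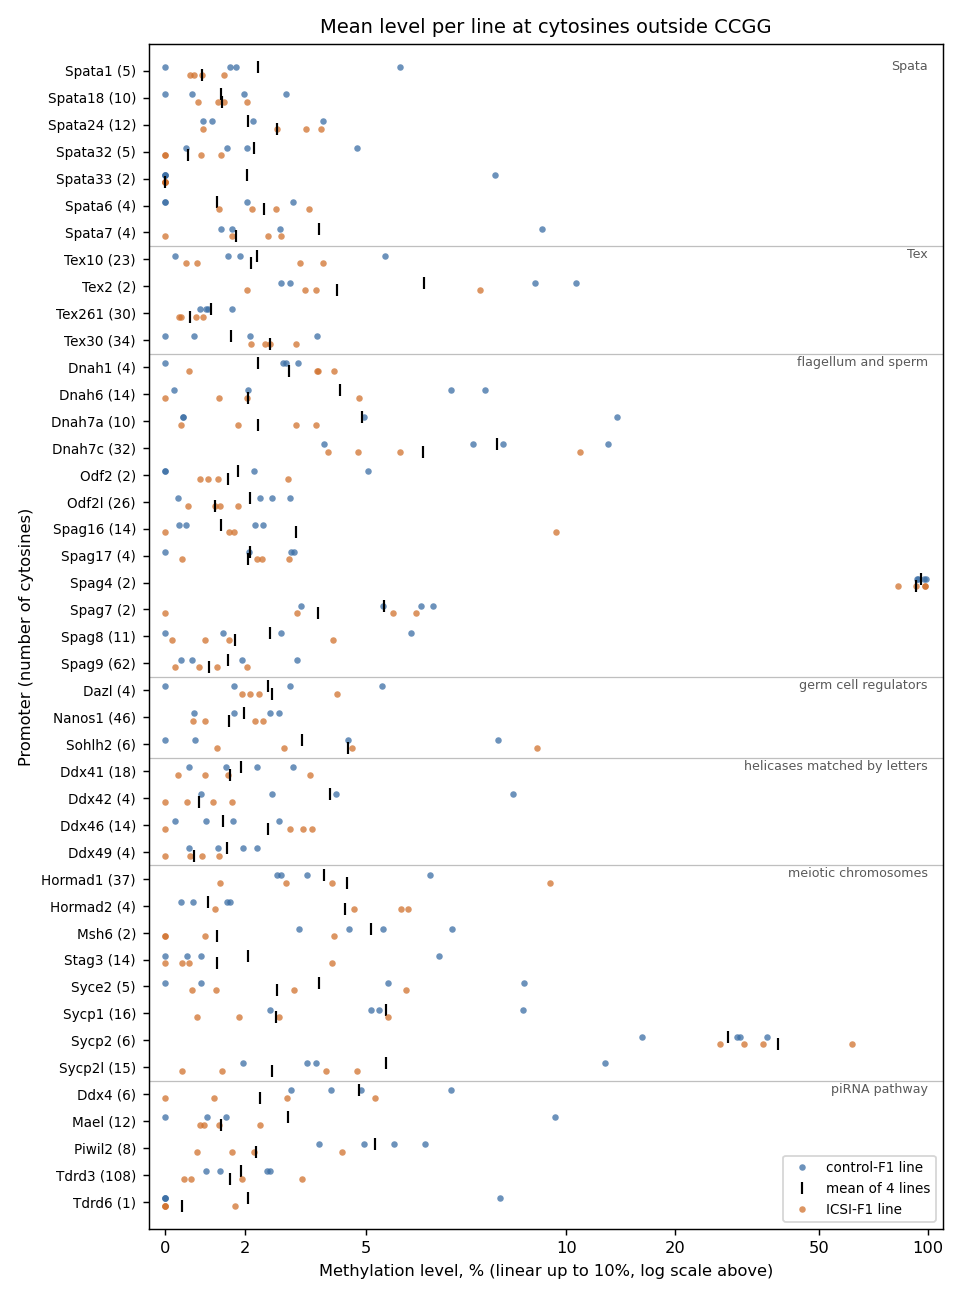
Mean methylation level (%, linear up to 10% and log scale above) of the member promoters with cytosines outside CCGG (1 is not drawn), 1 point per line and a bar for the mean of 4 lines. Spag4 near 94.4% and Sycp2 at 33.3% over the 8 lines stand apart from the other promoters, whose means over the 8 lines lie between 0.888 and 7.34%.

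Outside CCGG, the measured promoters of the piRNA pathway were under 10% in every line. Ddx4 encodes the germ cell RNA helicase known as mouse vasa homolog, and its 6 cytosines outside CCGG, 15 to 28 bases upstream of the start, averaged 7.13, 4.14, 4.89 and 3.14% in control-F1 lines 29, 37, 44 and 45, and 0, 3.04, 5.24 and 1.24% in ICSI-F1 lines 11, 17, 20 and 21. The groups overlapped. Piwil2 encodes a Piwi protein, and its 8 cytosines had 4.96, 3.83, 5.70 and 6.48% in the control-F1 lines and 0.798, 1.67, 4.40 and 2.22% in the ICSI-F1 lines in the same order. Line 20 was the only ICSI-F1 line within the control-F1 range. With its 3 CCGG cytosines, Piwil2 was at 10.3 and 12.8% in lines 44 and 45 and under 10% in the others. Mael, which encodes a protein needed for piRNA production and transposon silencing, had 9.72% in control-F1 line 37 and 2.38% or less in each other line. Tdrd3, which shares the Tudor domain and the letters of the Tdrd genes but is expressed in many tissues and is not known as a piRNA pathway gene, had the most measured cytosines of any member, 121, of which the 108 outside CCGG averaged 0.483 to 3.43% per line. Tdrd6 and Tdrkh, Tudor domain genes of the piRNA pathway, had only 2 and 1 measured cytosines, with means over the lines of 2.76 and 3.76% when all were counted, and the Tdrkh cytosine, in CCGG, was at 11.7% in line 44. With every cytosine counted, the differences of the ICSI-F1 mean from the control mean were −2.32 percentage points for Ddx4, −1.94 for Mael and −3.92 for Piwil2, and −0.023 for Tdrd3. The groups overlapped at each of these promoters and at Tdrd6 and Tdrkh. Of the 44 member promoters with at least 3 cytosines, 27.0 had a lower mean in the ICSI-F1 lines (61.4%), where 56.3% of all such promoters did.

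Among the genes grouped here by symbol as germ cell regulators, Dazl, Nanos1 and Sohlh2 were low outside CCGG. The only measured cytosine of Sohlh1, in CCGG, was at 18.5% over the 8 lines. Dazl encodes an RNA binding protein that germ cells need throughout their development, and its 4 cytosines outside CCGG, 493 to 510 bases upstream, had 2.57% ± 2.29 (SD, n = 4) in the controls and 2.67% ± 1.09 (SD, n = 4) after ICSI. The Dazl CCGG cytosines 476 and 477 bases upstream were at 23.1 and 25.3%. Nanos1, of the Nanos family of translational regulators, had 46 cytosines outside CCGG at 1.98% ± 0.961 (SD, n = 4) and 1.60% ± 0.871 (SD, n = 4). Sohlh2 encodes a basic helix-loop-helix factor of spermatogonial differentiation and had 3.40% ± 3.82 (SD, n = 4) and 4.55% ± 3.43 (SD, n = 4), with 9.27% in ICSI-F1 line 20. Its partner Sohlh1 had 1 measured cytosine, in CCGG at position 25847879 of chromosome 2, 631 bases upstream, with a 3′ end fragment of 801 bases, longer than a read. That cytosine had 11.8, 34.7, 35.5 and 31.5% in control-F1 lines 29, 37, 44 and 45, and 2.56, 6.49, 20.5 and 4.88% in ICSI-F1 lines 11, 17, 20 and 21. The difference of −19.8 percentage points, just short of the 20 point rule used below, left 1 line of each group inside the range of the other group (29 and 20). Within each library set the 2 ICSI-F1 lines were below the 2 control-F1 lines.

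Most genes of the meiotic chromosomes had low levels as well, with Sycp2 as the exception. Sycp1, a transverse filament protein of the synaptonemal complex, had 16 cytosines outside CCGG at 5.50% ± 2.60 (SD, n = 4) in the 4 control-F1 lines and 2.76% ± 2.04 (SD, n = 4) in those of the ICSI-F1 group. Its 14 cytosines within 92 bases of the start averaged 0.922 to 5.31% per line, and the 2 cytosines 688 and 699 bases upstream were at 36.1% in line 44 and at 14.7% or less in each other line. Hormad1 was at 9.60% in ICSI-F1 line 20 and between 1.36 and 6.61% in the other lines. Hormad2, its paralog, had 4 cytosines at 0.701, 1.61, 1.55 and 0.394% in control-F1 lines and 1.25, 4.72, 5.88 and 6.06% in ICSI-F1 lines, listed in the same order of lines, with line 11 inside the control-F1 range. Stag3, the cohesin subunit of meiosis, was at 6.83% in line 44, 4.17% in line 17 and 0.902% or less in the others. Syce2, of the central element of the synaptonemal complex, was between 0 and 8.94%. Sycp2l, a relative of Sycp2, reached 12.8% in line 44 and was at 4.78% or less elsewhere. Msh6, a mismatch repair gene that is also active outside the germline, had 3.21% over the 8 lines.

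Sycp2, which encodes a lateral element protein of the synaptonemal complex, was partly methylated in all 8 lines. Its 8 measured cytosines lay between 638 and 684 bases upstream of the start, outside any CpG island, in the stretch chr2:178408313-178408379 printed above. Over these cytosines the level was 16.9, 27.9, 33.3 and 31.6% in control-F1 lines 29, 37, 44 and 45, and 27.6, 31.1, 34.4 and 60.6% in ICSI-F1 lines 11, 17, 20 and 21. Line 21 was highest and line 29 lowest, and the other 6 lines lay between 27.6 and 34.4%. Without the 2 cytosines in CCGG, the means were 28.0% ± 8.37 (SD, n = 4) and 38.5% ± 15.8 (SD, n = 4). The difference over all 8 cytosines was 10.99 percentage points (exact two-sided permutation test over 70 arrangements of the lines, p = 0.286, adjusted p = 1 by the Benjamini-Hochberg method over all promoters with at least 3 cytosines). Without line 21 it was 3.61 percentage points.

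The larger group differences in Sycp2 were on the + strand. At position 178408356, 671 bases upstream, the control-F1 lines had 12, 31.7, 39.5 and 24.5%, and the ICSI-F1 lines had 40, 48.4, 42.2 and 77.5%, at a scaled coverage of 60 to 117 reads, so that the groups did not overlap. The − strand cytosine of that CpG, at 672 bases, had a difference of 3.97 percentage points, 11.4% ± 7.05 (SD, n = 4) against 15.3% ± 14.1 (SD, n = 4). At 666 bases upstream the + strand had 2.50, 13.3, 37.8 and 26.7% in the controls and 37.5, 26.1, 29.1 and 84.4% in the ICSI-F1 group, and the groups overlapped. Its − strand partner at 667 bases was lower in the ICSI-F1 mean, by −4.24 percentage points. The CpG with its + strand cytosine at 671 bases was the only member CpG outside CCGG whose strands differed by more than 20 percentage points, with 39.5% on the + strand and 13.3% on the − strand over the 8 lines.

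**Figure D4:**
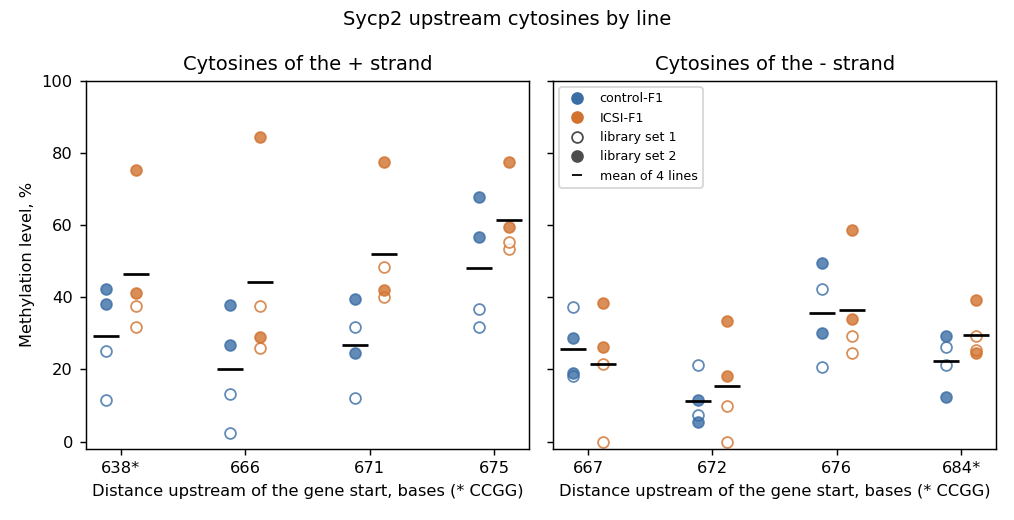
Methylation level (%) of the 8 measured Sycp2 cytosines in each line, split by strand and ordered by their distance upstream of the gene start (bases, * marks CCGG), with bars for the mean of 4 lines. ICSI-F1 line 21 is the highest point at every cytosine, and only at 671 bases do all 4 ICSI-F1 lines lie above all 4 control-F1 lines.

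Spag4 and Dnah7c, both from the list of flagellum and sperm genes, were methylated outside CCGG. Spag4 encodes a SUN domain protein of spermatids, and the 2 cytosines of its CpG 920 and 921 bases upstream were at 95.3 and 93.5% over the lines. With its 2 CCGG cytosines the Spag4 level was 83.2, 93.0, 96.8 and 99.0% in control-F1 lines and 77.4, 93.9, 95.8 and 88.5% in ICSI-F1 lines, so that it was high in both groups and lowest in lines 11 and 29. The difference was −4.08 percentage points (p = 0.486, exact permutation test, adjusted p = 1), and it was −0.248 without line 11 and −7.34 without line 29. In Dnah7c, an axonemal dynein heavy chain gene, the level changed along the promoter. Its 22 cytosines outside CCGG within 131 bases of the start averaged 0.759 to 7.75% per line, and the 10 cytosines 755 to 878 bases upstream averaged 6.31 to 25.0% per line. The distal part was higher in each of the 8 lines, with 18.9% ± 6.97 (SD, n = 4) in the controls and 13.3% ± 6.30 (SD, n = 4) in the ICSI-F1 group. Of the 18 member cytosines outside CCGG that lay 700 bases or more upstream, 10 were in Dnah7c and 2 in Spag4, and the other 6, in Msh6, Tdrd3 and Tex2, averaged 3.04%. A higher mean far from the start was not particular to these genes. Over all promoter cytosines outside CCGG it was 2.80% at 1 to 200 bases and 12.2% at 700 to 1000 bases. Spag4 was measured only at 912 to 921 bases and Sycp2 only at 638 to 684, so their levels near the start are not known.

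The remaining flagellum, Spata and Tex genes were low outside CCGG. Dnah6, Dnah7a, Odf2l, Spag8, Spag9, Spag16 and Spag17 had means over the lines of 3.21, 3.62, 1.69, 2.18, 1.34, 2.33 and 2.09%, and Dnah1, Odf2 and Spag7 had 2.71, 1.70 and 4.64%. The 7 Spata promoters lay between 1.03 and 2.81%, and the 4 Tex promoters between 0.888 and 5.37%. The 4 helicases matched by their letters were at 1.14 to 2.49%.

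Averaged over all member cytosines, the level was 5.48, 5.30, 8.39 and 7.67% in control-F1 lines 29, 37, 44 and 45, and 4.82, 6.26, 8.01 and 7.19% in ICSI-F1 lines 11, 17, 20 and 21. The group means of 6.71% ± 1.55 (SD, n = 4) and 6.57% ± 1.37 (SD, n = 4) differed by −0.141 percentage points, less than the spread between lines, and the difference over all promoter cytosines was −0.147. The lines separated by library set and not by group, with 5.47% in set 1 and 7.82% in set 2. The ICSI-F1 mean was higher by 0.147 percentage points in set 1 and the difference was −0.430 in set 2. Outside CCGG the group means were 3.25% ± 1.2 (SD, n = 4) and 2.82% ± 1.2 (SD, n = 4), and set 2 was again the higher, with 3.95% against 2.12%. What sets the sets apart was not tested.

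**Figure D5:**
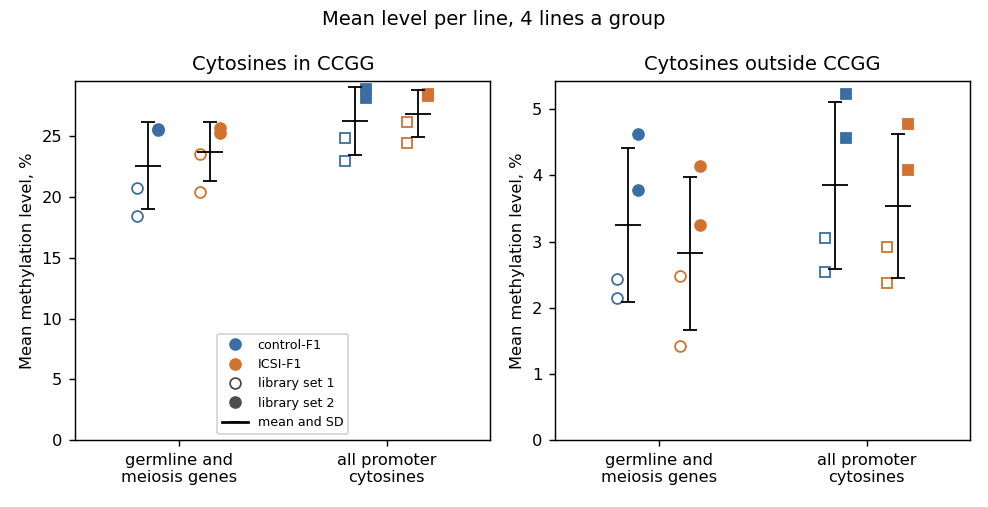
Mean methylation level (%) per line over the member cytosines and over all promoter cytosines, in CCGG and outside it, with the mean and SD of 4 lines. Filled points (library set 2) lie above open points (library set 1) in both groups, and the group means outside CCGG, 3.25 and 2.82% for the members, lie within each other's SD.

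Sites were also called by a rule made after the study's, which asks for a difference of more than 20 percentage points between the groups and leaves out sites where any sample changed the opposite way. That exclusion can be read in several ways, and here a site was left out when any ICSI-F1 line was below the control mean at a site higher on average after ICSI, or above it at a lower one, so that counts may differ from those of the study's own procedure. The rule called 3 of 791 member cytosines higher in the ICSI-F1 lines, where it called 0.274% of all promoter cytosines, and 0 lower, where it called 0.0506%. Outside CCGG it called 2 of 649 member cytosines higher, both in Sycp2, and 0 lower, against 0.161 and 0.0367% of all. Called were the Sycp2 cytosines at 666 and 671 bases and 1 cytosine of Dnah6, an axonemal dynein heavy chain gene. The Dnah6 cytosine, at position 73221709 of chromosome 6, 58 bases upstream, was in CCGG and had 39.4, 18.3, 61.8 and 50% in the control-F1 group and 50, 75.6, 66.7 and 80.4% in the ICSI-F1 group, at a scaled coverage of 26 to 82 reads. Only its 3′ end fragment, of 125 bases, was within a read, and its partner on the other strand was at 4.85% over the lines. The Dnah6 promoter as a whole had 7.84% ± 4.52 (SD, n = 4) and 7.72% ± 3.87 (SD, n = 4), a difference of −0.126 percentage points (p = 0.943, exact permutation test, adjusted p = 1). With the strands of each CpG merged the rule called no member in either direction.

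Few member sites or promoters had groups that did not overlap. Among cytosines, 4 were higher and 7 lower in all ICSI-F1 lines, where 0.427 and 0.679% of all promoter cytosines were. The 4 higher ones belonged to Spata6, Sycp2, Tdrd3 and Tex30, and the 7 lower ones to Dnah7c, Odf2l, Piwil2, Sycp2l and, with 3 cytosines, Tdrd3. In absolute terms the differences at these cytosines other than that of Sycp2 were between 2.48 and 9.12 percentage points. Among the 44 member promoters with at least 3 cytosines, 0 were higher and 1 was lower, where 0.563 and 0.771% of all such promoters were. This promoter, named after its values had been seen, was that of Msh6. Its 4 cytosines averaged 5.85, 3.33, 6.12 and 6.34% in control-F1 lines and 1.83, 2.81, 2.50 and 1.84% in ICSI-F1 lines with −3.17 percentage points between the means. Without its 2 CCGG cytosines the groups overlapped. Within both library sets, and in the same direction, the groups did not overlap at 1 member promoter that was higher after ICSI (Hormad2) and at 2 that were lower (Msh6 and Piwil2), where 2.4 and 3.3% of all promoters with at least 3 cytosines did so. Among member cytosines 9 were higher and 11 lower by this criterion, which was chosen after the data had been seen, where 0.847 and 1.07% of all were.

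The remaining promoters named for the size of their difference did not pass the exact test. For Piwil2, the difference over all 11 cytosines was −3.92 percentage points (9.85% ± 2.26 against 5.92% ± 1.98, SD, n = 4 each, exact two-sided permutation test, p = 0.0857). For Odf3b it was 4.90 percentage points (p = 0.114, exact permutation test), 0.0457 at a coverage of 20 or more (p = 1, exact permutation test) and −0.266 within library set 2. For Odf2, which encodes the major protein of the outer dense fibers of sperm, it was 3.56 percentage points (p = 0.229, exact permutation test), 1.64 without line 37, 5.40 without line 44 and −0.24 without CCGG. All adjusted p were 1, and the smallest p that 4 lines against 4 allow is 0.0286. Adjusted over 8174 promoters, that p could reach 0.05 only if most promoters shared it. The adjusted p of the exact tests given here, those of Sycp2, Spag4 and Dnah6 included, therefore could not have been small and carry no information.

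A logistic model of methylated and unmethylated reads with the dispersion between lines moderated across the table (limma) called none of 8172 promoters (0%) and none of 196818 cytosines (0%) at a false discovery rate of 0.05, members included. With library set as a covariate it also called none of either. At an unadjusted p under 0.05 it then had 2 of 44 member promoters, beside 553 of 8172 in all (210 without the covariate). It had 143 of 766 member cytosines, 45 higher and 98 lower. Over the whole table it had 30353 of 196818 cytosines, 11949 higher and 18404 lower (13901 without the covariate). The promoter count was also 0 with limma on log2 ratios, and both counts were 0 with the dispersion of each promoter or cytosine taken on its own. At an unadjusted p under 0.05 the moderated logistic model without the covariate had 0 of 44 member promoters, against 2.57% of all promoters. It had 60 of 766 member cytosines (7.83%), 23 higher and 37 lower, against 7.06% of all. The lowest p among member promoters were 0.0660 for Msh6 and 0.0975 for Sycp2 (moderated logistic model, adjusted p = 0.9996 for both). Among member cytosines that of Sycp2 at 671 bases had the lowest (adjusted p = 0.702, limma-moderated logistic model).

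Cytosines outside CCGG that were low in most lines could be raised in a single line. At 633 member cytosines there, the median of the 8 lines was under 10%, and 27 of them (4.27%) were at 20% or more in some line, beside 4.55% over all promoter cytosines. These held 29 of the values of 20% or more at member cytosines outside CCGG, and the 16 cytosines with a median of 10% or more held 76. The counts were 0, 4, 8 and 3 in control-F1 lines 29, 37, 44 and 45, and 0, 0, 11 and 3 in ICSI-F1 lines 11, 17, 20 and 21. Line 20 had 7 of its 11 in Hormad1, line 44 had 4 of its 8 in Sycp2l, and line 37 had 2 in Mael. All 4 lines of library set 2 had such cytosines, and 1 of the 4 lines of set 1 did.

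Sequence motifs known from germline promoters were found in a minority of the members. In RefSeq promoter windows from 250 bases before to 50 after the start, found for 45 of the 49 genes, the E-box CACGTG (palindromic) was in 9 (20%), against 11.8% of the 6908 matched genes of the table. The E2F motif GGCGGGA, on either strand, was in 12 (26.7%), against 24.2%. The E-box was found in Ddx4, Ddx42, Hormad1, Mael, Sohlh1, Stag3, Syce2, Sycp1 and Tex10. In 4 places a CpG measured on both strands was the centre of an E-box, and these 8 cytosines of Hormad1, Sycp1 and Tex10 were at 1.31 to 5.66% over the lines. A match of letters is a description and does not show that a factor binds there.

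A further list of 60 germline genes whose names the rule does not match had 25 genes with measured cytosines. Outside CCGG their median level over the 8 lines was 2.52%, beside 2.29% over all 8480 promoters measured there. Under 10% were 23 of the 25, near the 93.0% of all 7358 promoters with at least 3 such cytosines. Catsper1 and Ropn1, both sperm tail genes, were at 97.3 and 79.0%, resting on 1 and 4 cytosines.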

How the data were processed

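RRBS libraries of 8 GS cell lines were made with the Zymo-Seq RRBS Library Kit and sequenced as paired reads of 150 bases. Per the study's methods and processing notes, the authors trimmed reads with Trim Galore (0.5.0, RRBS and non-directional settings), aligned them to mm10 with Bismark (0.20.0) and counted with methylKit (1.16.0 in the notes, another version in the methods). The deposited table holds, per cytosine and line, methylated, unmethylated and total reads as scores: coverage scaled between lines and rounded, for cytosines with at least 10 reads in every line and strands kept apart. Because of the scaling no binomial intervals were given, apart from the rough bound for a level of 0. Reads carried no molecular identifiers. The line numbers match numbers that the study gives to single F1 mice in its tests of tail DNA, and its text does not describe the origin of each line further. The p-values measure the spread between lines.

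Levels were methylated over methylated plus unmethylated reads, averaged without weights over cytosines. CCGG context, fragment lengths and sequences came from RefSeq GRCm38.p6 (203644 of 203645 positions were CpGs), gene starts from GENCODE M21. Distances run from the gene start in the deposited table. Tests were an exact permutation test and a quasi-binomial logistic model (R 4.3.3, limma 3.58.1) fitted over the whole table with Benjamini-Hochberg adjustment, tested on simulated data. Descriptions used Python 3.11.15 with pandas 2.3.3. Members, lists and tests were chosen with earlier results of these data known. Named were core germline genes, genes with a called cytosine, the 5 promoters with the largest differences, those at 30% or more, and the 5 most variable. The library sets were read from how the labels are written. Alternatives are listed in the closing section. The values of 1 member gene are not reported by name here, and it stays in all counts.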

Additional observations from a re-analysis of the deposited data

Results flagged for a closer look

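In groups of 4 lines, the gap of a line to the nearest other line was taken as a share of the group's range. A line was singled out when this share exceeded Dixon's critical value, which chance does in about 1 of 20 groups of normally distributed values. This was examined in 92 groups of values of the named promoters, the called cytosines and the mean levels, and 11 values were singled out. Levels near 0 are not normally distributed, and many of the groups share cytosines. The rate therefore gives no expected number for these groups. The Mael promoter was at 10.1% in control-F1 line 37 (0.208 to 1.76% in the other 3 lines), and at 9.72% without CCGG. Control-F1 line 44 was high at Stag3 (6.83%, others up to 0.902%), at Tdrd6 (7.24%, others 1.97 to 2.73%, and 8.33% at its 1 cytosine outside CCGG, others 0) and at Spata33 without CCGG (8.21%, others 0). ICSI-F1 line 17 was high at Stag3 (4.17%, others up to 0.595%) and at the same Tdrd6 cytosine (1.75%, others 0). Control-F1 line 45 was high at Dazl (12.2%, others 7.10 to 7.97%). Control-F1 line 29 was high at Ddx4 (6.66%, others 4.19 to 4.48%) and low at the Sohlh1 cytosine (11.8%, others 31.5 to 35.5%). The levels at Tdrd6 and Spata33 without CCGG rest on 1 and 2 cytosines.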

How the results depend on the processing

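The number of member promoters and member cytosines called at a false discovery rate of 0.05 was 0 under all 14 and 12 alternatives run. These included the dispersion taken on its own, a setting without power in earlier work on these data. Over the whole table, cytosines called numbered 70 without line 44, 16 without line 17, 9 without line 37, 6 without line 11, 5 without line 20, 1 without line 45, 8 at a coverage of 20 or more and 0 under the other alternatives, none of them members. The mean level over member cytosines moved by less than the spread between lines under all 21 alternatives, but its small difference changed sign, between −0.620 and 0.441 percentage points when 1 line was left out. Counts of cytosines past the 20 point rule, 3 higher and 0 lower, were less stable. They were 5 and 2 at 15 percentage points, 1 higher when all ICSI-F1 lines had to lie beyond all control-F1 lines, 0 higher with strands merged, 7 higher in library set 1 alone, and 1 higher and 4 lower in set 2 alone. Leaving out 1 line gave 1 to 5 higher and 0 to 3 lower, with 1 higher, in Dnah6, and none in Sycp2 without line 21. Promoters at 50% or more in control-F1 lines numbered 3 with at least 1 cytosine, 0 with strands merged and 0 without CCGG (the last chosen after seeing the data), since Spag4 then has fewer than 3 cytosines. The Dnah6 difference of −0.126 turned to 0.50 percentage points at a coverage of 20 or more, 0.882 in set 1, and 1.53, 0.759, 1.33 and 0.286 without line 44, 45, 11 or 17 (−1.74 to 1.53 when 1 line was left out). The Odf2 difference turned to −0.24 without CCGG and that of Odf3b to −0.266 in set 2. The cause was not tested for the values that changed. The Sycp2, Piwil2 and Spag4 differences kept their direction under 14 alternatives each, with Spag4 between −7.34 and −0.248 percentage points when 1 line was left out. No paired analysis was possible because the groups share no line numbers, and library set was used as a covariate in its place. By the rough bound of 3 divided by the median scaled coverage, a single cytosine at 0 allows up to 3.23 to 4.11%. The bound is wider at cytosines with lower coverage.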
